A study of Mus musculus with 12 samples.

Results

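CTCF peaks were collected at the genes that encode CTCF itself and the cohesin complex, namely Ctcf, Rad21, Smc1a, Smc3, Stag1, Stag2, Nipbl, Wapl, Pds5a and Pds5b. A peak was taken when its summit lay in the body of one of these 10 genes or within 20 kb on either side, on the mm10 build with GENCODE gene models. This gave 145 of the 183882 peaks listed in the series, and overlapping peaks of the different lists merged into 38 of 56248 sites. The sites are numbered within each gene in order along the chromosome. The study profiled CTCF by ChIP-seq in brain, heart and lung of C57BL/6 mouse embryos (substrain C57BL/6 N in the study's methods) at E18.5, and its question here is where CTCF sits in wild-type embryos and in embryos homozygous for the CTCF change R567W, which was introduced by CRISPR/Cas9 editing. Of the 12 samples, 6 were CTCF ChIP libraries and 6 were inputs, with 1 library per organ, genotype and kind, so no difference between the genotypes has a replicate check. Equal amounts of chromatin from the human kidney-derived line HEK293T were mixed into the groups. The homozygous embryos carry the change in every cell, so no Cre line or tissue-restricted promoter limits the model. How many embryos went into a library and their sex are not given in the sources used here. A peak list holds no expression values, so the labelled organs could not be checked against marker genes.

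CTCF recognises an oriented core motif in DNA through its zinc fingers, in places extended by an upstream motif read by the fingers nearest its C-terminus. Cohesin is a ring of SMC1A, SMC3 and RAD21 with a STAG subunit, STAG1 or STAG2, on its side. NIPBL loads cohesin and drives loop growth, WAPL with PDS5A or PDS5B releases it, and loops tend to end where cohesin meets CTCF bound in the facing orientation.

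Throughout, paired values are given as wild type against mutant. The lists held 36034 against 38390 peaks in brain, 21059 against 11515 in heart and 44386 against 32498 in lung. Heights are given as the summit pileup, the whole number of reads stacked at a summit, recovered from the deposited fold enrichment and p-value. Ratios between lists are ratios of the scaled pileup. For it, the reads are divided by the genome-wide background of the list, taken as its lowest background, 1.42 to 2.02 reads. This is a relative depth without a spike-in factor, so higher or lower in the mutant does not mean an absolute gain or loss of CTCF. The study scaled its own signals by the HEK293T chromatin and reported reduced binding at numerous sites in the mutant organs. The lowest listed summit held 7 to 9 reads depending on the list, so a site missing from a list has no listed peak there and may still be bound below that level. The wild-type lung list stood apart. At the 12 member sites found in all 6 lists, its local background was a median of 7.65 times the genome background, against 1.00 to 1.30 times in the other lists, which lowers its fold enrichments but not its pileups. Intervals of ratios are exact 95% intervals for counting error only. They take each read as an independent count and the background of the list as exact. Reads without molecular identifiers are not independent molecules, so these intervals may be too narrow.

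The R567W codon lies in exon 9 of Ctcf at chr8:105676176-105676178 on the + strand of GRCm38, and the reference reads as follows, with the arginine codon in capitals (chr8:105676158-105676178).
Ctcf codon 567: gggaaaacattcacccgcCGG
The CTCF site nearest to this codon, Ctcf site 4, had its summit 1.90 kb away, inside an intron of Ctcf.

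The sites that carry the account below are shown by sequence. Each line gives the 19 bases of the core motif in capitals, preceded in small letters by the 16 bases 5′ of it on the same strand, where the upstream motif would fall. For the Stag1 and Pds5a promoters only the core motif is given, because an untranslated region is touched. The core motifs at the members' own promoters are shown because they marked most of the highest peaks and all pointed along their gene.
Ctcf promoter (site 2, chr8:105636740-105636774, + strand): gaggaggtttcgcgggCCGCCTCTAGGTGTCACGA
Smc3 promoter (site 1, chr19:53599890-53599924, + strand): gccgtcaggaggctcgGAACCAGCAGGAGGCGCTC
Rad21 promoter (site 1, chr15:51991878-51991912, - strand): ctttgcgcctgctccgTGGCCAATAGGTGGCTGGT
Stag1 promoter (site 1, chr9:100643570-100643588, + strand): CGGCCAGCAGAGGGCGGTC
Stag2 promoter (site 1, chrX:42149204-42149238, + strand): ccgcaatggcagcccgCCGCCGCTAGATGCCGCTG
Pds5a promoter (site 1, chr5:65696929-65696947, - strand): TGACCGATAGAGGCCGGTA
Pds5b promoter (site 3, chr5:150673674-150673708, + strand): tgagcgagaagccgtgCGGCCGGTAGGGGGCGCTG
The strongest sites away from the members' promoters are shown for comparison. They flank Ctcf and Smc3 on the outside.
Ctcf site 1 (chr8:105622547-105622581, + strand): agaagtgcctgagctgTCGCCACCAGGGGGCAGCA
Smc3 site 6 (chr19:53648890-53648924, + strand): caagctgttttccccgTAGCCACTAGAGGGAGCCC
The next 4 sites had lower scaled pileups in the mutant in every organ where both genotypes had a peak.
Stag1 site 5 (chr9:100917304-100917338, - strand): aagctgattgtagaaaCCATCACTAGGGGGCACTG
Pds5b site 5 (chr5:150718008-150718042, - strand): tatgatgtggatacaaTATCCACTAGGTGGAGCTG
Pds5b site 4 (chr5:150702887-150702921, - strand): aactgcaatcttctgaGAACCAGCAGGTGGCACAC
Nipbl site 7 (chr15:8451200-8451234, + strand): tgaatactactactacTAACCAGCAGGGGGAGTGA

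The genes differed widely in how many peaks they had, from Ctcf and Nipbl with up to 5 or 6 per list to Wapl with 1 in all. Summed over the 10 genes there were 25 against 29 peaks in brain, 20 against 13 in heart and 32 against 26 in lung. The genes' windows held 25.1 sites per Mb against 20.6 per Mb over the genome. Ctcf and Smc3 were the densest, with 69.5 and 70.2 sites per Mb, and Wapl was the sparsest, with 8.77 per Mb.

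**Figure D1:**
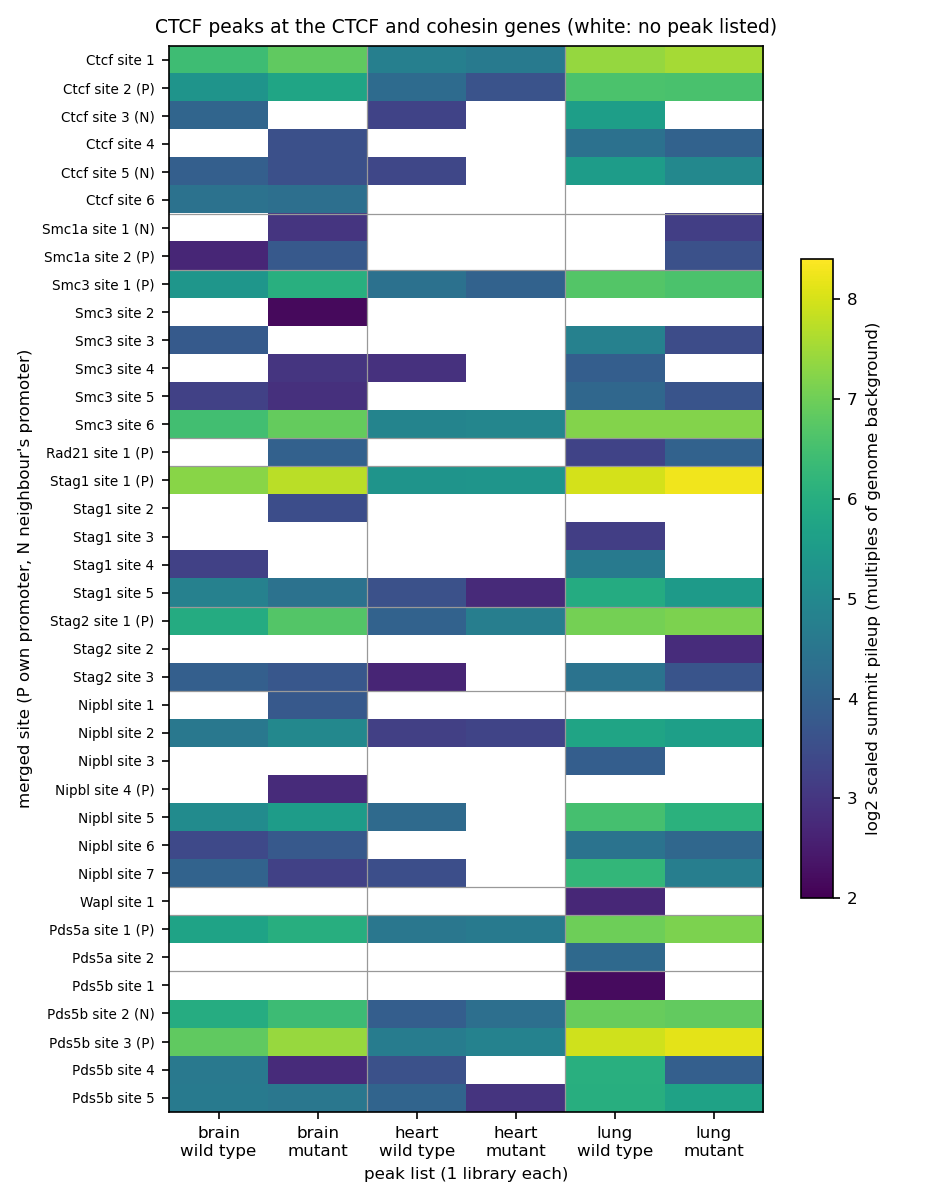
Scaled summit pileup (log2, multiples of the genome background of the list) of each of the 38 merged sites in the 6 peak lists, 1 library each, with white where no peak was listed. P marks the gene's own promoter and N the promoter of a neighbouring gene. The promoter site of Stag1 is the brightest in every list, and the mutant heart column has the most white.

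Most of the members had a CTCF peak at their own promoter, defined by a summit within 1 kb of an annotated start. In wild-type brain this held for 7 of the 10 genes, where 24.0% of 21938 protein-coding genes had one, and in mutant brain for 9, where 34.0% had one. In heart it held for 6 genes in each genotype, with 14.6% of protein-coding genes in wild-type and 10.2% in mutant heart. In lung it held for 7 and 9 genes, against 33.1% and 27.4%. Ctcf, Smc3, Stag1, Stag2, Pds5a and Pds5b had a promoter peak in all 6 lists, and Wapl had none in any list. No test was made of these shares, since the genes were chosen as a group with earlier results in view.

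At the members' promoters, each wild-type peak had a mutant counterpart. All 8 wild-type promoter peaks of the members in brain overlapped a mutant peak, as did all 7 in heart and all 9 in lung. These peaks came from 7, 6 and 7 genes. Pds5a had 2 of them in each organ and Stag1 had 2 in lung, each pair within 1 merged site. Over all genes, wild-type promoter peaks without a mutant overlap made up 9.95% for brain, 39.6% for heart and 32.2% for lung. The members' promoter peaks were the higher ones, with median scaled pileups of 53.1, 20.8 and 103 in the wild type of these organs, beside 20.6, 15.8 and 21.0 over all promoter peaks, and the part of height in the overlap was not tested. For brain, 0 of 8 lost is near the share of all promoters. Of the member peaks outside the members' own promoters, 14 of 17 were overlapped in brain, 6 of 13 in heart and 15 of 23 in lung. Over all wild-type peaks outside promoters the overlapped shares were 79.6%, 48.4% and 66.8%, close to those of the members. The sets are not alike, since that of the members keeps 3 peaks per organ at promoters of neighbouring genes.

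Counting promoter and distal peaks together, 22 of 25 wild-type member peaks overlapped a mutant peak in brain, where 81.5% of the complete list did. The number was 13 of 20 in heart, where 50.6% of the list did, and 24 of 32 in lung, where 67.0% did. In the opposite direction, 8 of 29 mutant peaks in brain had no wild-type overlap against 24.5% of the complete list, 0 of 13 in heart against 7.12%, and 3 of 26 in lung against 9.11%. For brain the overlapped share of wild-type member peaks was 88.0% (Wilson 95% interval 70.0 to 95.8), for heart 65.0% (43.3 to 81.9) and for lung 75.0% (57.9 to 86.8). Each interval included the share of the complete list.

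The Ctcf gene (ENSMUSG00000005698.15, chr8:105636568-105682922, + strand) had 6 sites, and its promoter was among those in all 6 lists. The promoter site, chr8:105636490-105637647, had its summit 255 bp downstream of the nearest start, in an intron, and carried 68 against 109 reads in brain, 33 against 24 in heart and 147 against 134 in lung. Brain was therefore higher in the mutant and heart and lung were lower. As log2 of mutant over wild type, brain gave 0.43 (interval -0.02 to 0.89), heart -0.61 (-1.43 to 0.20) and lung -0.03 (-0.38 to 0.31), so each interval included 0. Over the 3 organs the mean was -0.07 ± 0.52 (SD, n = 3; exact two-sided sign-flip permutation test, p = 0.75). Centred on all shared autosomal sites, brain was 0.47 (0.02 to 0.93), an interval that excluded 0. Lung then turned to 0.32 (-0.03 to 0.67), and heart stayed lower at -0.35 (-1.17 to 0.45).

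Upstream of Ctcf lay its highest site, Ctcf site 1 at chr8:105622098-105622970, 14.0 kb before the start in an intron of Agrp, the gene of a feeding neuropeptide. It held 145 against 232 reads in brain, 47 against 48 in heart and 257 against 265 in lung. Uncentred, the ratio exceeded counting error in brain alone, at log2 0.43 (0.13 to 0.74). Centred on all shared autosomal sites, the lung ratio was 0.50 (0.25 to 0.75), an interval that also excluded 0. The core motif of this site is among those printed above.

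Inside Ctcf, site 3 at chr8:105661134-105661495 behaved differently from the promoter. It lies in an intron, 575 bp from the start of the predicted gene Gm5915, and had no core motif. It was listed with 29 reads in wild-type brain, 17 in wild-type heart and 74 in wild-type lung, and in no mutant list. It was the 1 member site present in the wild type of all 3 organs and absent from every mutant list, which makes 1 of the 18 member sites with a wild-type peak in all 3 organs, where 3.15% of all such sites had no mutant peak in any organ. Its wild-type pileup lay above 36.9% of the peaks of the brain list, 14.5% of the heart list and 58.5% of the lung list. Ctcf site 5, at the promoter of Carmil2, an actin-regulating gene downstream of Ctcf, held 26 against 24 reads in brain, 18 in wild-type heart with no mutant peak, and 71 against 45 in lung. Sites 4 and 6 held 23 to 41 reads where listed. Ctcf site 4 was found in mutant brain and both lung lists, and site 6 in both brain lists.

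**Figure D2:**
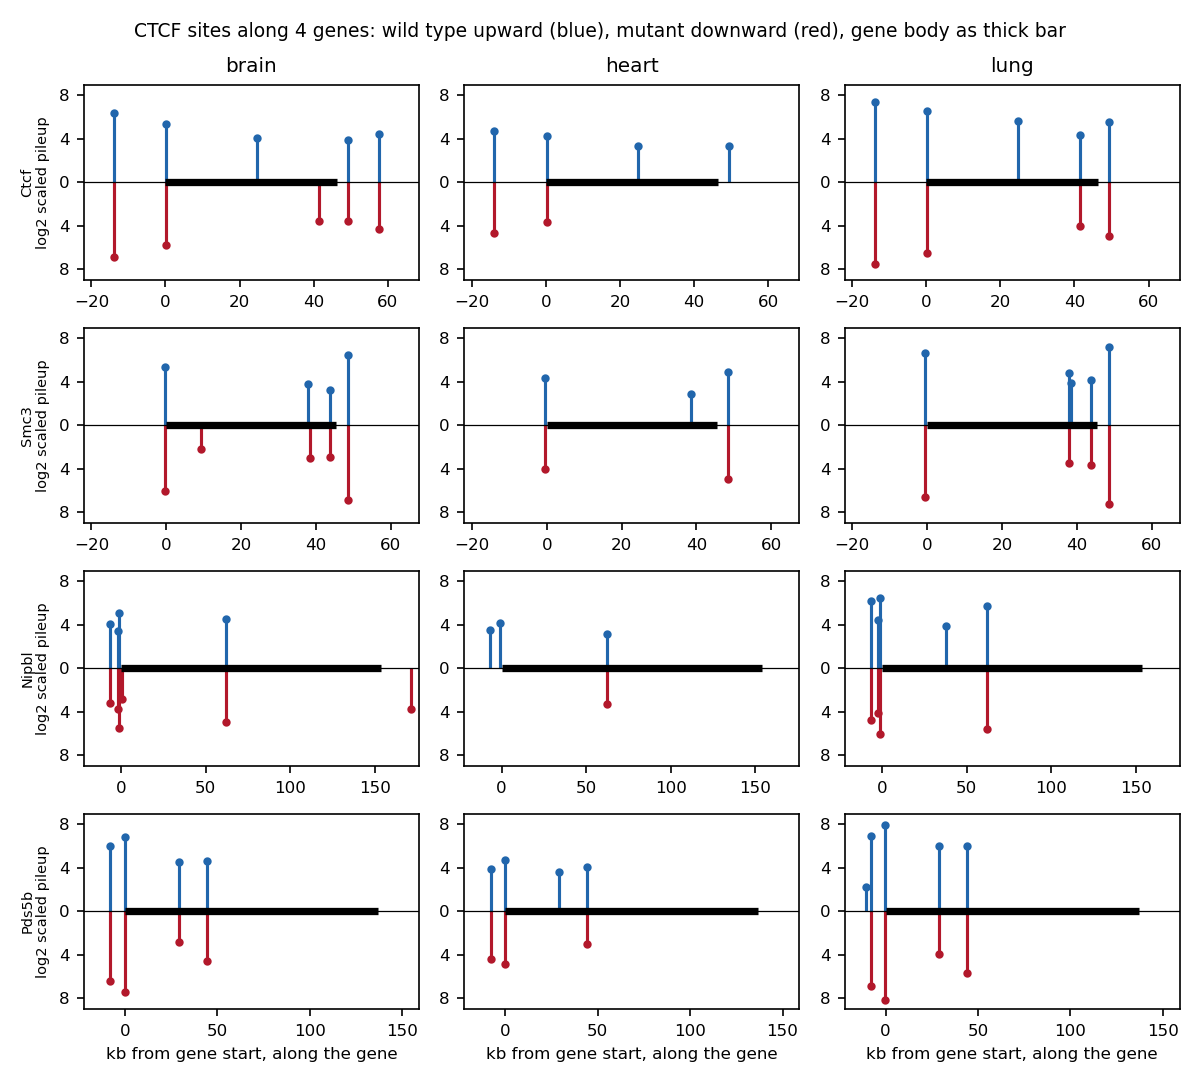
CTCF sites along Ctcf, Smc3, Nipbl and Pds5b in the 3 organs, drawn by distance in kb from the gene start, with the log2 scaled summit pileup upward for the wild type (blue) and downward for the mutant (red) and the gene body as a thick bar. Ctcf site 3 appears 24.8 kb into the gene in blue only in each organ, and the strong flanking sites of Ctcf and Smc3 appear in both colours throughout.

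Among the ring subunits, Smc3 had strong CTCF sites and Rad21 and Smc1a had weak ones. Smc3 (ENSMUSG00000024974.10, chr19:53600398-53645833, + strand) had its promoter site at chr19:53599575-53600884, 469 bp before the start. The reads there were 70 against 133 in brain, 36 against 31 in heart and 157 against 137 in lung, the same order of genotypes in each organ as at the Ctcf promoter. Brain was 1.60-fold higher in the mutant (log2 0.68, interval 0.25 to 1.12), while the heart and lung intervals included 0 (log2 -0.36 and -0.10). Past the other end of the gene, 48.5 kb from the start, Smc3 site 6 (chr19:53648592-53649728) held 150 against 240 reads in brain, 51 against 59 in heart and 225 against 210 in lung. Its log2 ratio was 0.43 in brain (0.13 to 0.74), 0.06 in heart and 0.00 in lung. Centred on all shared autosomal sites, the lung ratio was 0.36 (0.08 to 0.63). The promoter motif and the motif of site 6 both read in the direction of the gene.

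The 4 sites within Smc3 were lower, with at most 43 reads, and none was in all 6 lists. Smc3 site 3 held 24 reads in wild-type brain and none were listed in mutant brain, and it went from 43 to 16 reads in lung, a log2 ratio of -1.33 (-2.25 to -0.47). Smc3 site 4, less than 1 kb further on, was listed in mutant brain with 16 reads, in wild-type heart with 13 and in wild-type lung with 23.

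Rad21 (ENSMUSG00000022314.10, chr15:51962240-51991747, - strand), which encodes the subunit that closes the ring, had a single site, 137 bp before its start at chr15:51991653-51992073. It was listed with 32 reads in mutant brain, 15 in wild-type lung and 23 in mutant lung. Neither heart list nor wild-type brain held a peak there. The lung ratio was log2 0.72 with an interval of -0.28 to 1.76. Centred on all shared autosomal sites, it was 1.072 (0.071 to 2.115), an interval that excluded 0.

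Smc1a (ENSMUSG00000041133.11, chrX:152016428-152062694, + strand) also showed low peaks, and more of them in the mutant lists. Its promoter site, chrX:152015737-152016244, 468 bp before the start and 335 bp from the start of Ribc1, had no core motif and held 11 reads in wild-type brain, 28 in mutant brain and 17 in mutant lung. The brain ratio was 2.15-fold (log2 1.10, interval 0.05 to 2.26). Smc1a site 1, at the promoter of Hsd17b10, a mitochondrial dehydrogenase gene, was listed with 16 reads in mutant brain and 13 in mutant lung and in no wild-type list. It was the 1 member site with a mutant peak in more than 1 organ and no wild-type peak, a pattern shown by 1.13% of all sites. No heart list held a peak at Smc1a. Smc1a and Stag2 are X-linked, and over the genome the median log2 ratio of shared X sites minus that of autosomal sites was -0.02 for brain, 0.09 for heart and -0.06 for lung.

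The STAG subunit genes carried promoter peaks in all 6 lists, which were higher in mutant than in wild-type brain. Stag1 (ENSMUSG00000037286.15, chr9:100597798-100959375, + strand) had its promoter site at chr9:100642585-100644426, 47 bp before the nearest of its annotated starts. It reached 260 against 428 reads in brain, 69 against 78 in heart and 390 against 437 in lung. This was the highest member site in all 6 lists, above 98.5% to 99.8% of the peaks of each list. The mutant was higher in each organ, with log2 ratios of 0.47 for brain (0.25 to 0.70), 0.03 for heart (-0.46 to 0.52) and 0.26 for lung (0.06 to 0.47).

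Stag2 (ENSMUSG00000025862.14, chrX:42149317-42277185, + strand) had a promoter site 74 bp before the start, at chrX:42148795-42149476. The reads were 105 against 210 in brain, 28 against 51 in heart and 203 against 200 in lung. Scaled, the mutant was 1.69-fold higher in brain (log2 0.75, interval 0.41 to 1.11) and 1.64-fold higher in heart (0.72, 0.03 to 1.44), and in lung the log2 ratio was 0.08 (-0.21 to 0.37). Its mean of 0.52 ± 0.38 (SD, n = 3) was the highest of the member sites found in all 6 lists, higher in 3 of 3 organs (exact two-sided sign-flip permutation test, p = 0.25, the smallest it can give). The Stag2 site of highest wild-type level away from the promoter, site 3 in an intron (chrX:42272735-42273140), held 26 against 27 reads in brain, 11 in wild-type heart with no mutant peak, and 33 against 18 in lung.

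Within the long Stag1 gene, the sites away from its promoter had lower peaks and differed in direction. Stag1 site 5, in an intron at chr9:100917035-100917636, held 48 against 43 reads in brain, 21 against 13 in heart and 94 against 64 in lung. It had the lowest mean ratio of the member sites in all 6 lists, log2 -0.57 ± 0.24 (SD, n = 3). The ratio was lower in 3 of 3 organs (exact two-sided sign-flip permutation test, p = 0.25, the smallest it can give). In no single organ did the interval exclude 0. Stag1 site 4, in an intron at chr9:100910390-100910667, was listed with 16 reads in wild-type brain and 38 in wild-type lung and in no mutant list. Stag1 site 2, also intronic, went the other way and was listed in mutant brain alone, with 23 reads. Stag1 site 4 and Ctcf site 3 were 2 of 38 member sites (5.42% of all sites) with a wild-type peak in more than 1 organ and no mutant peak.

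Nipbl (ENSMUSG00000022141.7, chr15:8290617-8444463, - strand), the loader gene, had 7 sites, 3 of them in the 7 kb before its start. The highest, Nipbl site 5 at chr15:8444359-8446127, had its main summit 1023 bp before the start, just outside the promoter limit, with 58 against 94 reads in brain, 32 in wild-type heart with no mutant peak, and 140 against 97 in lung. It was higher in mutant brain (log2 0.45, interval -0.04 to 0.95) and lower in mutant lung (-0.43, -0.82 to -0.05). Centred on all shared autosomal sites, the lung ratio was -0.07 (-0.46 to 0.31), an interval that included 0. Small summits closer to the start were part of the same merged region. They lay 22 and 405 bp from the start in mutant brain, with 10 and 25 reads, 206 bp away in mutant lung with 17 reads, and 216 and 666 bp away in wild-type lung with 18 and 17 reads.

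The count of promoter peaks at Nipbl therefore rests on how the regions were drawn. In mutant lung the summit of 17 reads was called as a region of its own and counted as a promoter peak, and in wild-type lung the summit of 18 reads belonged to the wider region and did not count. A separate promoter peak of 14 reads, Nipbl site 4 at chr15:8443773-8444062, without a core motif, was listed in mutant brain alone.

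Further from the start, Nipbl site 7 (6.77 kb before it) was lower in the mutant where both genotypes had a peak. It held 28 against 19 reads in brain, 20 in wild-type heart with no mutant peak, and 115 against 38 in lung. The lung ratio was log2 -1.50 (-2.07 to -0.96), and the brain ratio was -0.81 (-1.73 to 0.09). Nipbl site 2, in an intron, was in all 6 lists, with 40 against 64 reads in brain, 16 against 19 in heart and 81 against 70 in lung, and none of its ratios exceeded counting error.

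Of the genes for cohesin release, Wapl had almost no CTCF and the Pds5 genes had strong promoters. Wapl (ENSMUSG00000041408.18, chr14:34673928-34747983, + strand) had 1 peak of 10 reads in an intron, in wild-type lung, above 3.60% of the peaks of that list. Pds5a (ENSMUSG00000029202.12, chr5:65605721-65698273, - strand) had a broad promoter region with several summits at chr5:65696577-65698752. At the summit over the printed core motif, 906 to 930 bp from the nearest annotated start, the reads were 90 against 171 in brain, 40 against 48 in heart and 194 against 201 in lung. A summit 113 to 136 bp from an annotated start held 91 against 130 reads in brain, 23 against 26 in heart and 199 against 103 in lung. Another summit, 141 to 178 bp from an annotated start, held 70 against 137 reads in brain, 31 against 36 in heart and 149 against 122 in lung. Scaled, all 3 summits were higher in mutant brain, and in lung 2 of the 3 were lower in the mutant, the exception being the summit over the printed motif. The merged ratio of brain, log2 0.28, sets different summits against each other, because the fold enrichment of the deposited lines decided which summit stood for a region. Elsewhere Pds5a had 1 distal peak of 28 reads, in wild-type lung.

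Pds5b (ENSMUSG00000034021.15, chr5:150673739-150810690, + strand) had 5 sites, of which the 4 with a peak in both genotypes differed in direction. Its promoter site, chr5:150673355-150674592, 34 bp before the start, was second in height to that of Stag1 in the brain and lung lists. In both heart lists Smc3 site 6 was also higher, as was Ctcf site 1 in wild-type heart. The reads were 195 against 347 in brain, 45 against 55 in heart and 377 against 401 in lung. The mutant was higher in 3 of 3 organs, with log2 ratios of 0.59 for brain (0.33 to 0.85), 0.14 for heart (-0.45 to 0.74) and 0.19 for lung (-0.02 to 0.40).

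Within the same gene, 2 intronic sites had lower scaled pileups in the mutant. Pds5b site 4 (chr5:150702599-150703124) held 41 against 14 reads in brain, 21 in wild-type heart with no mutant peak, and 101 against 22 in lung. These were the lowest brain and lung ratios among the member sites, 3.47-fold lower in brain (log2 -1.80, interval -2.79 to -0.89) and 4.28-fold lower in lung (-2.10, -2.84 to -1.42). Pds5b site 5 (chr5:150717770-150718330) held 42 against 47 reads in brain, 29 against 15 in heart and 98 against 74 in lung, and the interval of its ratio excluded 0 in heart alone (log2 -1.10, -2.10 to -0.15), and in none once centred on all shared autosomal sites (heart -0.84, -1.85 to 0.10). In its upstream flank, Pds5b site 2 at the promoter of N4bp2l2 held 107 against 168 reads in brain, 26 against 39 in heart and 183 against 166 in lung.

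**Figure D3:**
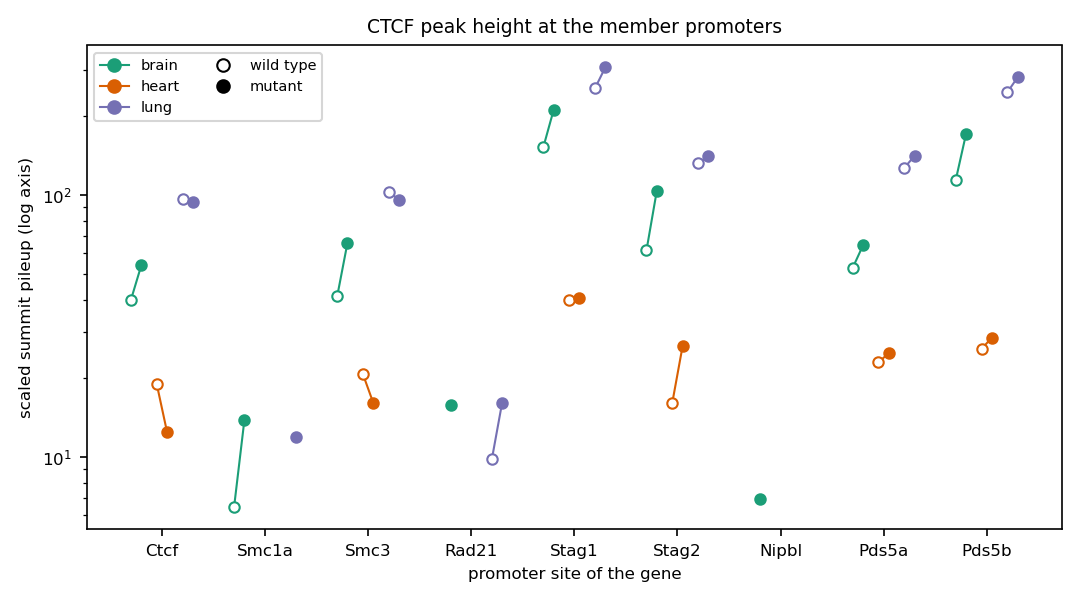
Scaled summit pileup (log axis) at the promoter site of each member that had one, with open circles for the wild type, filled circles for the mutant and a line where both genotypes of an organ had a peak. Each circle is 1 library. Every brain line rises from wild type to mutant, and the heart lines of Ctcf and Smc3 fall.

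Of the 38 sites, 12 were in all 6 lists, where 18.6% of all merged sites were. Among these 12, 2 were lower in the mutant in 3 of 3 organs (28.1% of all such sites), namely Stag1 site 5 and Pds5b site 5, and 5 were higher in 3 of 3 (13.9%), namely the promoters of Stag1, Stag2, Pds5a and Pds5b and Smc3 site 6. The call for Pds5a depends on the summit that stood for the region, since 2 of its 3 promoter summits were lower in mutant lung. For Smc3 site 6 the lung difference was under 0.01 on the log2 scale. When the ratios were centred on the median of all shared autosomal sites of the organ, 1 was lower and 8 were higher in all 3 organs, beside 16.3% and 36.6% of all such sites. Pds5b site 5 lost the call, and Stag1 site 5 was the 1 that remained lower. All 6 promoter sites in this group were higher in mutant brain, as were 83.9% of all promoter sites in all 6 lists.

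Over every shared site, the members' promoters had a median log2 ratio of 0.59 for brain (n = 7, range 0.28 to 1.10), 0.07 for heart (n = 6, -0.61 to 0.72) and 0.15 for lung (n = 7, -0.10 to 0.72). Over all shared promoter sites of the genome the medians were 0.41, -0.15 and -0.08. Over the shared promoter sites in the top 10% of all sites by wild-type height the medians were 0.54, -0.20 and 0.02. That set is not matched to the members in height. In wild-type brain the members' promoter sites ranged from above 2.30% of the list (Smc1a) to above 99.7% (Stag1). With each of the 3 Pds5a summits in turn, matched by position, the members' median ranged over 0.59 to 0.68 for brain, 0.03 to 0.07 for heart and 0.08 to 0.15 for lung (chosen after seeing the data). The lowest value in lung then reached -0.85. For the member sites outside their promoters the brain median was -0.07 (n = 14), the heart median -0.03 (n = 6) and the lung median -0.43 (n = 15), and over all shared sites outside promoters they were -0.15, -0.29 and -0.44. Sites at promoters of neighbouring genes were kept among these member sites but left out of the set over all sites. In each organ the members' promoters had the higher median of the 2 classes, and the same order held over the genome.

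**Figure D4:**
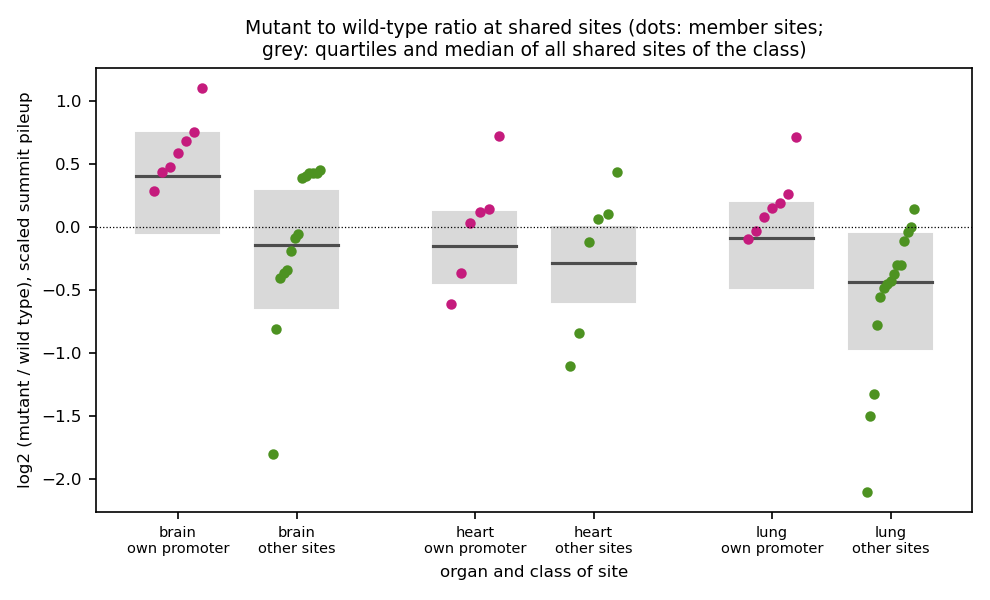
Log2 ratio of mutant to wild-type scaled summit pileup at the member sites with a peak in both genotypes, by organ and by class (own promoter or other sites). Dots are member sites. The grey boxes and lines are the quartiles and medians of all shared promoter sites or of all shared sites outside promoters. The other sites of the members include those at promoters of neighbouring genes. The member promoters lie above 0 in brain, and the lowest dots in brain and lung are Pds5b site 4.

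More sites lacked a mutant peak in heart than in the other organs. A wild-type peak in all 3 organs was found at 18 of the 38 member sites (34.8% of all sites). Of these 18, the mutant lacked a peak at 1 in brain (6.43% of all such sites), 6 in heart (46.3%) and 1 in lung (6.63%). The 6 heart sites were Ctcf sites 3 and 5, Nipbl sites 5 and 7, Pds5b site 4 and Stag2 site 3, with 11 to 32 reads in wild-type heart. None of them was a promoter site of a member. The mutant heart list is also the shorter one. With both lists of an organ reduced to equal length, 10 of 11 wild-type member peaks were overlapped in heart, beside 22 of 25 in brain and 23 of 26 in lung. At that length neither the share of the complete lists nor the 18 sites were counted again. How far the excess of heart goes with the length of the list was therefore not tested.

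The core motif was found within 100 bp of the summit at 34 of the 38 member sites, or 89.5% (Wilson 95% interval 75.9 to 95.8), against 80.0% of all sites and 6.67% of windows beside them. The 4 without it were Ctcf site 3, the Nipbl and Smc1a promoter sites and Nipbl site 6. The upstream motif TGCAGTNCC, searched on the strand of the core motif within 30 bp before it and with up to 2 mismatches, was found at 4 of 34 member sites (11.8%, interval 4.67 to 26.6), against 26.6% of all core-motif sites and 13.4% in a mirrored window behind the motif. These were Ctcf sites 1, 4 and 5 and Stag1 site 3, all with 2 mismatches. In the mirrored window 3 of the same 34 sites had a match, so nothing is read from these 4. None of the members' own promoters had it.

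At promoters the core motif pointed along the gene at 7 of 7 member sites that had the motif, where 55.2% of 6836 promoter sites of the genome pointed along the gene of the nearest start. At the other member sites it did so at 11 of 27. Inside the gene bodies but outside the promoters it pointed along the gene at 5 of 16, with a Wilson interval of 14.2% to 55.6%, and no genome-wide share was computed for such sites.

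A group of weak sites in 4 of the genes shared nearly the same sequence. The site of Wapl is printed with its relatives, which lie in Pds5b's flank, in Smc3 and downstream of Nipbl, with the core motif in capitals.
Wapl site 1 (chr14:34691498-34691532, - strand): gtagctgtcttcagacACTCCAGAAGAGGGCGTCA
Pds5b site 1 (chr5:150663033-150663067, + strand): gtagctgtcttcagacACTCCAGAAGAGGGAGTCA
Smc3 site 2 (chr19:53609594-53609628, + strand): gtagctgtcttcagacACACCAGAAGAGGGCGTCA
Smc3 site 5 (chr19:53644178-53644212, + strand): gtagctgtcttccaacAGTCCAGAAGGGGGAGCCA
Nipbl site 1 (chr15:8273187-8273221, - strand): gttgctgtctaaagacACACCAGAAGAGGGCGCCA
The sites of Pds5b and Smc3 (site 2) differed from that of Wapl at 1 of 35 bases, and the others at 5 and 6. B2 elements, short repeats that are spread through rodent genomes, are known to carry a CTCF motif. In the RefSeq genome the core motif was soft-masked as repeat sequence at 4 of these 5 sites, Smc3 site 5 being the exception. Over the genome, 2792 of 44993 core-motif sites (6.21%) had at most 8 mismatches to the Wapl site, and 99.1% of those were soft-masked.

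Most of these repeat-like sites were low where they were listed. Wapl site 1 held 10 reads in wild-type lung, Pds5b site 1 held 7 in wild-type lung, Smc3 site 2 held 9 in mutant brain and Nipbl site 1 held 28 in mutant brain, each in 1 list. The peak at Nipbl site 1 was the highest of these and lay above 41.8% of its list. Smc3 site 5 was listed in both brain lists, with 16 and 15 reads, and in both lung lists, with 27 and 18. Of all sites like that of Wapl, 0.430% were in all 6 lists, against 23.7% of the other core-motif sites. The limit of 8 mismatches and the grouping were chosen after the sequences were seen.

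**Figure D5:**
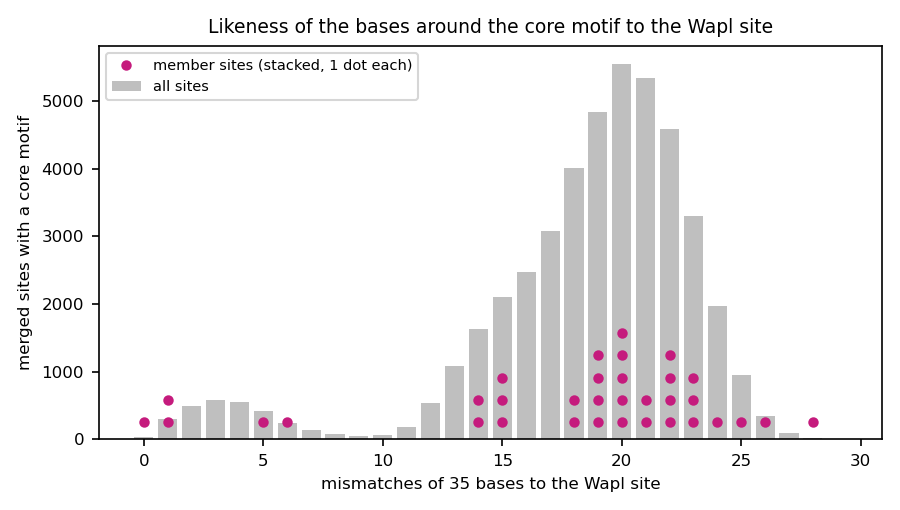
Number of merged core-motif sites (grey bars) by the number of mismatches of 35 bases to the Wapl site, with 1 dot per member site. The sites fall into 2 groups, and 5 member sites lie in the group with at most 8 mismatches.

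Genes that work with CTCF and cohesin gave a frame for these counts. Of 20 partner genes, which included the acetyltransferases Esco1 and Esco2, the loader partner Mau2 and the meiotic subunits Rec8 and Stag3, 5 had a promoter peak in wild-type and 7 in mutant brain, 4 and 4 in heart, and 9 against 7 in lung. Of 14 genes of condensin and the SMC5/6 complex, the other SMC complexes of the cell, 5 and 7 had one in brain, 2 and 2 in heart, and 10 against 6 in lung. Over all protein-coding genes the shares were 24.0% against 34.0% in brain, 14.6% against 10.2% in heart and 33.1% against 27.4% in lung. The wild-type peaks of the partner genes overlapped a mutant peak in 45 of 51 cases in brain, 17 of 36 in heart and 48 of 64 in lung. Those of the condensin and SMC5/6 genes did so in 25 of 27, 7 of 11 and 24 of 43 cases. Over the complete wild-type lists the overlapped shares were 81.5% in brain, 50.6% in heart and 67.0% in lung. No test was made of these counts.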

How the data were processed

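CTCF ChIP-seq peak lists of brain, heart and lung from wild-type and homozygous R567W embryos were analysed, 1 library per organ and genotype, with groups taken from the labels. Per the labels and the study's methods, Trim Galore was used for trimming and Bowtie2 for alignment to a combined mm10 and hg38 genome, poorly mapped reads were removed, and the authors ran MACS2 with default settings on each library. Peak lists carry no spike-in factor, and which input served as control is not given in the sources used here. Input libraries were not analysed here.

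Of the deposited columns, the score restates the q-value as a whole number and was left out. The fold enrichment deposited by the authors is a ratio, summit pileup over local background, after 1 is added to both. Deposited p-values and q-values are on the −log10 scale, and a further column gives the summit offset. Where several lines described a region, the summit with the largest fold enrichment stood for it. Whole-number pileups were solved from fold enrichment and the Poisson p, which succeeded for 100.0% of lines, and were divided by the lowest background of the list.

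Sites were merged by at least 1 bp. Promoters lay within 1 kb of a GENCODE M21 basic start, gene windows had flanks of 20 kb, and sequences came from the RefSeq copy of GRCm38. The core motif was scored with 19 columns learned from 2000 wild-type brain peaks (1922 sites) at p of 1e-04 or less. Shares carry 95% Wilson intervals. No test was made between genotypes within an organ. Single sites were tested between genotypes with the 3 organs as pairs, by an exact sign-flip permutation test. With 3 organs its smallest p is 0.25, so it cannot decide whether the genotypes differ at a site. Sites named with values in every list were the member promoters, the highest distal site per gene, sites seen in 2 or more organs of 1 genotype only, and the 3 lowest and 3 highest ratios among sites in all 6 lists. Ctcf sites 4 to 6, Smc3 sites 2 to 5, Nipbl sites 1, 2 and 7, Pds5b sites 1 and 4 and Stag1 sites 2 and 3 were added after their values were seen. The members and lists were chosen with earlier results of these data known. As alternatives, a −log10 q of 5 or more, all summit lines, equal list lengths, other overlaps, flanks and promoter distances, fold enrichment, centring, autosomal members and stricter motif calls were tried. Scripts were tested on simulated data. The software was matplotlib 3.10.9, pysam 0.24.0, scipy 1.17.1, pandas 2.3.3 and numpy 2.4.6 under Python 3.11.15.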

Additional observations from a re-analysis of the deposited data

Results flagged for a closer look

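The number of member peaks changed in opposite directions between organs. The mutant had 4 more than the wild type in brain, and the change was -7 in heart and -6 in lung. These differences were not tested, since there was 1 library per organ and genotype. The complete lists moved the same way. With both lists of an organ reduced to equal length, the member peaks were 25 against 28 in brain, 11 against 13 in heart and 26 against 26 in lung (wild type against mutant), so the opposite directions were no longer seen.

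At 5 of the 12 sites in all 6 lists, the mutant was higher in at least 1 organ and lower in at least 1 other, and these differences were not tested either. In log2 of mutant over wild type, the gap between the highest and the lowest organ was 1.04 at the promoter of Ctcf and 1.04 at the promoter of Smc3, with brain highest and heart lowest at both. It was 0.55 at Ctcf site 1, 0.54 at Nipbl site 2 and 0.48 at Pds5b site 2. The mixed direction of the last 3 depends on the scaling, since all were higher in the mutant in 3 of 3 organs once the ratios were centred on all shared autosomal sites.

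The local background, which enters the comparisons of pileups only through the choice of 1 summit per region, stood out in wild-type lung. At the 12 member sites in all 6 lists its median was 7.65 times the genome background, with a range of 1.36 to 15.98, and it was highest at the Stag1 and Pds5b promoters, the highest peaks. In the other lists no such site exceeded 2.40 times. Over all peaks the median was 2.38 times in the wild-type lung list and 1.04 to 1.18 times in the others. How far this touches the peak numbers of wild-type lung was not tested.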

How the results depend on the processing

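Of 75 recomputed values over 25 results, 61 stayed within the tolerance, 12 moved beyond it and 2 changed sign. The tolerance was 1.5 times for counts, the 95% Wilson interval for shares and the range between the quartiles of the member sites for medians. With both lists of an organ cut to equal length, wild-type heart had 11 member peaks, and the overlapped share was 90.9% in heart and 88.5% in lung. The overlapped share of the complete lists was not computed at that length. A reciprocal overlap of 50% gave 56.0% in brain and 53.1% in lung. With the deposited fold enrichment in place of the pileup, the median log2 ratio came to 0.51 for brain, 0.15 for heart and 0.99 for lung, where the sign changed from -0.20, and the local background of wild-type lung enters that ratio by construction. Centring on all shared autosomal sites gave 0.30 in heart and 0.15 in lung, again with a changed sign, and left 1 site lower and 8 higher in every organ (added after seeing the data). Of 55 single-site ratios, the interval excluded 0 for 16, and for 14 of these also when centred, the exceptions being Nipbl site 5 in lung and Pds5b site 5 in heart, while 8 others excluded 0 only when centred. With brain and heart only, also added, the numbers lower and higher were counted again and stayed within 1.5 times. At a motif p of 1e-05 or less, 55.3% of member sites had a core motif (57.9% of all sites), and with at most 1 mismatch 0% had an upstream motif (11.7% of all). Where no construction is named, the cause was not tested. Replicates could not be paired, since each group holds 1 library, and the 3 organs were the only pairs of the sign-flip test. Precision is limited by the 20 to 32 wild-type member peaks per organ.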

Other observations

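Promoter peaks in all 6 lists were also found at 4 of the 20 partner genes and at 1 of the 14 condensin and SMC5/6 genes. The highest in both brain and both lung lists and in wild-type heart was that of Esco1, a cohesin acetyltransferase gene, with 189 against 428 reads in brain, 69 against 54 in heart and 358 against 307 in lung. Its scaled pileup was lower in the mutant in heart (39.8 against 28.1) and lung (235 against 216) and higher in brain (111.0 against 212). The promoter of Patz1, a zinc finger gene, held 108 against 213 reads in brain, 41 against 42 in heart and 207 against 199 in lung. At the promoter of Chd8, a chromatin remodeller known to bind CTCF, the reads were 93 against 222 in brain, 49 against 54 in heart and 225 against 248 in lung. Among the SMC5/6 genes, Nsmce4a held 136 against 289 reads in brain, 35 against 66 in heart and 277 against 294 in lung. Sgo1, which protects cohesin at centromeres, was lower, with 34 against 64 reads in brain, 19 against 19 in heart and 89 against 83 in lung.

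Among sites with a wild-type peak, those like the repeat-borne site in Wapl lacked a mutant peak more often than other core-motif sites. In brain, 42.8% of 923 such sites with a wild-type peak had no mutant peak, against 15.9% of the other core-motif sites. The shares were 83.3% of 78 and 46.7% in heart, and 73.0% of 1309 and 27.1% in lung. The number of such sites listed did not fall in every organ. It was 923 against 1658 in brain, 78 against 17 in heart and 1309 against 496 in lung. Other core-motif sites numbered 30259 against 30562 in brain, 19062 against 10843 in heart and 35547 against 27518 in lung. The sites like that of Wapl were also lower. Their median scaled pileup was 8.81 in wild-type brain, against 27.0 at the other sites, and 10.5 against 46.5 in wild-type lung. How much of the difference goes with height was not tested.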
